A study of Mus musculus with 4 samples.

Results

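Mature mineralizing osteoblasts were 324 of the 15670 cell barcodes kept from a CITE-seq experiment on mouse bone and marrow, a method that reads the mRNA of a single cell together with an oligonucleotide-tagged antibody bound to its surface, here against CD24. Barcodes with at least 200 genes and at most 20% mitochondrial UMIs were kept. The members were chosen by their RNA. A barcode was a member if it held at least 1 unique molecular identifier (UMI, a counted molecule) of at least 3 of the 6 genes Ifitm5, Dmp1, Col22a1, Slc13a5, Bmp3 and Col11a2, and at least 10 UMIs of osteocalcin, taken as Bglap plus Bglap2. There were 146 members among 10063 kept barcodes of the young mouse and 178 among 5607 of the old mouse. Both mice were untreated INK-ATTAC animals, which carry an inducible caspase 8 driven by a fragment of the p16Ink4a promoter, so both groups share the transgene. The young mouse was 6 months old and the old mouse 24 months old. Cells were released from the marrow and the bone of femur and tibia, passed over magnetic beads that take out blood lineages, and sorted for live cells without CD45, so a share given here is a share of sorted cells and not of the tissue. With 1 mouse of each age there was no replicate check, and age, animal and library cannot be told apart. No p-value is given, because the members were selected on the RNA that is described and because the smallest two-sided exact p that 2 mice allow is 0.5. Intervals are exact 95% intervals and cover counting error only.

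Osteoblasts are the cells that build bone. They first lay down osteoid, an unmineralized matrix made mostly of type I collagen, and then drive its mineralization through phosphatases, phosphate handling and acidic matrix proteins. Osteocalcin, the product of the Bglap genes, is a vitamin K-dependent matrix protein made late in this process. Some of these cells are buried in the matrix they made and become osteocytes, which express Dmp1, Phex, Mepe and, once mature, sclerostin.

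The promoter of Bglap is shown because osteocalcin is the more abundant part of the selection and because Bglap is a textbook target of RUNX2 and of homeodomain factors of the DLX and MSX families. The promoter of Ifitm5, the bone-specific membrane protein whose mutation causes osteogenesis imperfecta with hyperplastic callus, is shown for comparison. Both are the 160 bases before the RefSeq transcription start on the minus strand of GRCm38.p6, at chr3:88384467-88384626 for Bglap and chr7:140950244-140950403 for Ifitm5. Capitals mark matches to the letters ACCACA (the RUNX core) and TAATTG (a homeodomain core), each on either strand, and TATAAA on the coding strand.
Bglap: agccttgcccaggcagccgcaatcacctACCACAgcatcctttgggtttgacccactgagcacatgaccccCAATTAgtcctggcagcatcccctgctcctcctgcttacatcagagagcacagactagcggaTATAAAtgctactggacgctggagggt
Ifitm5: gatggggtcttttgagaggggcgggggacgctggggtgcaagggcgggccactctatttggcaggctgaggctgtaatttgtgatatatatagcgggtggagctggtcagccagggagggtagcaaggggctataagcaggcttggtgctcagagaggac
The 3 matches in Bglap began 132, 89 and 27 bases before the start. None of these letters was in the Ifitm5 window. In the 250 bases before a start, the RUNX letters were in 14.0% of all 32851 RefSeq windows, the homeodomain letters in 7.17% and TATAAA in 7.59%. Of the 33 genes named below as selecting or leading genes, 24 had a window in the table. The RUNX letters were found for 4 of those 24 genes, which is 16.7% beside 15.9% of all genes with a window. The homeodomain letters were found for 5 (20.8% beside 8.30%) and TATAAA for 4 (16.7% beside 8.94%). Counted over the 35 windows of these genes, the shares were 11.4%, 14.3% and 14.3%, beside 14.0%, 7.17% and 7.59% of all windows. These are matches of letters, which say nothing of binding.

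Members made up 1.45% of the kept barcodes of the young mouse (1.23 to 1.70%) and 3.17% of those of the old mouse (2.73 to 3.67%). The old library was deeper per barcode, with a median of 9711 RNA UMIs over kept barcodes against 6385 in the young, and a rule that counts molecules finds more members in deeper cells. After every barcode was thinned to 2000 UMIs, which left out 770 young and 496 old barcodes, and the rule was applied again, 55 of 9293 young barcodes (0.592%, 0.446 to 0.770%) and 82 of 5111 old barcodes (1.60%, 1.28 to 1.99%) qualified. Barcodes with 10 or more osteocalcin UMIs, by contrast, were 9.09% of the young and 8.60% of the old library. Of these barcodes, members made up 16.0% (13.6 to 18.5%) in the young mouse and 36.9% (32.6 to 41.4%) in the old, and at 2000 UMIs 11.3% and 32.8%. Of osteocalcin-positive barcodes, those with at least 3 of the 6 genes thus made up the larger share in the old library at both depths.

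The rule favours deep barcodes, and the depth of members is given as a description. A young member had a median of 9340 RNA UMIs over 2871 genes and an old member 20904 UMIs over 4150 genes, whereas all other kept barcodes had medians of 6341 and 9603 UMIs. Mitochondrial UMIs were similar at medians of 2.99% and 2.96%. Thinned to 2000 UMIs, a member showed fewer genes (medians of 957 and 915.5) than other barcodes did (1065 and 1056), so that its RNA was spread over fewer genes. The 2 messages of type I collagen alone made up a median of 3.30% of a young member's RNA and 12.4% of an old member's, with quartiles of 1.01 to 11.8% and 2.12 to 18.9%, which overlap. In all other barcodes the median was 0.279% and 0.231%. Scrublet predicted 4 young and 2 old members to be doublets, and these were kept. The libraries shared 19 kept barcode sequences, none of them between members.

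At the edges of the rule, 8 young and 4 old members held only 10 to 12 osteocalcin UMIs, and 5 barcodes of each library fell just short with 7 to 9. A further 769 young and 304 old barcodes had enough osteocalcin but fewer than 3 of the 6 genes. Members spanned a wide range in osteocalcin itself, from 10 to 7385 UMIs with a median of 94 among young members, and from 10 to 12929 with a median of 169 among old ones. Bglap and Bglap2 are near-identical neighbours and their separate levels are uncertain.

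The genes of the rule are described by their values only. Levels are given as CPM, the UMIs of a gene summed over the cells and scaled by all RNA UMIs of those cells to 1e6. Ifitm5 (ENSMUSG00000025489) stood at 656 CPM in young members and 705 CPM in old members and at 7.39 and 5.84 CPM in all other barcodes. It was found in 129 of 146 young and 157 of 178 old members, with a median of 4 and 9 UMIs and at most 93 and 86. Dmp1 (ENSMUSG00000029307), an acidic phosphoprotein of the mineralization front and of osteocytes, was patchier, with 494 and 276 CPM, and was found in 74 young and 103 old members. Col22a1 (ENSMUSG00000079022), a collagen of tissue junctions, stood at 302 and 463 CPM, and Col11a2 (ENSMUSG00000024330), a chain of the fibril-nucleating type XI collagen, at 876 and 1462 CPM. Bmp3 (ENSMUSG00000029335), a BMP family member that opposes bone formation, was the most widespread of the 6, in 138 young and 169 old members, at 403 and 342 CPM. Slc13a5 (ENSMUSG00000020805), the plasma membrane citrate transporter that supplies citrate to bone mineral, was the rarest, in 36 young and 85 old members, at 94.8 and 219 CPM. Bglap reached 17480 and 24862 CPM and Bglap2 10807 and 12220 CPM. All 6 genes were found in 12 young and 44 old members, and 5 or 6 of them in 52 (35.6%) and 104 (58.4%).

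Of the 5 markers of the label, 4 were used by the rule and were high by selection, so they cannot check it. The fifth, Car3 (ENSMUSG00000027559), a cytosolic carbonic anhydrase, did not enter the rule. As a marker it was chosen with earlier results of these data known, so its values are a description too. It stood at 1667 and 1913 CPM in members, 22.9 and 17.3 CPM in all other barcodes, and 2.76 and 1.61 CPM in early osteoblast-like barcodes (149 young and 38 old non-members with a UMI of both Tnn and Ostn). The 38 old early barcodes also held red cell RNA (Hbb-bs at 3581 CPM against 22.8 CPM in the young ones), and its part in comparisons with them was not tested. Car3 was found in 109 young and 158 old members. When the nearest neighbours of each member were sought in an expression space from which the 8 rule genes had been removed, a mean of 55.1% of its 15 neighbours in the young and 74.7% in the old library were members too, against shares of 1.45% and 3.17% among all barcodes. Only 9 young and 6 old members had no other member among their neighbours. Of the neighbours of members, a mean of 75.3% in the young and 84.9% in the old library had 10 or more osteocalcin UMIs. Members were 16.0% and 36.9% of all such barcodes. Most members thus lay together in this space, although genes tied to the rule genes shape it as well.

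**Figure D1:**
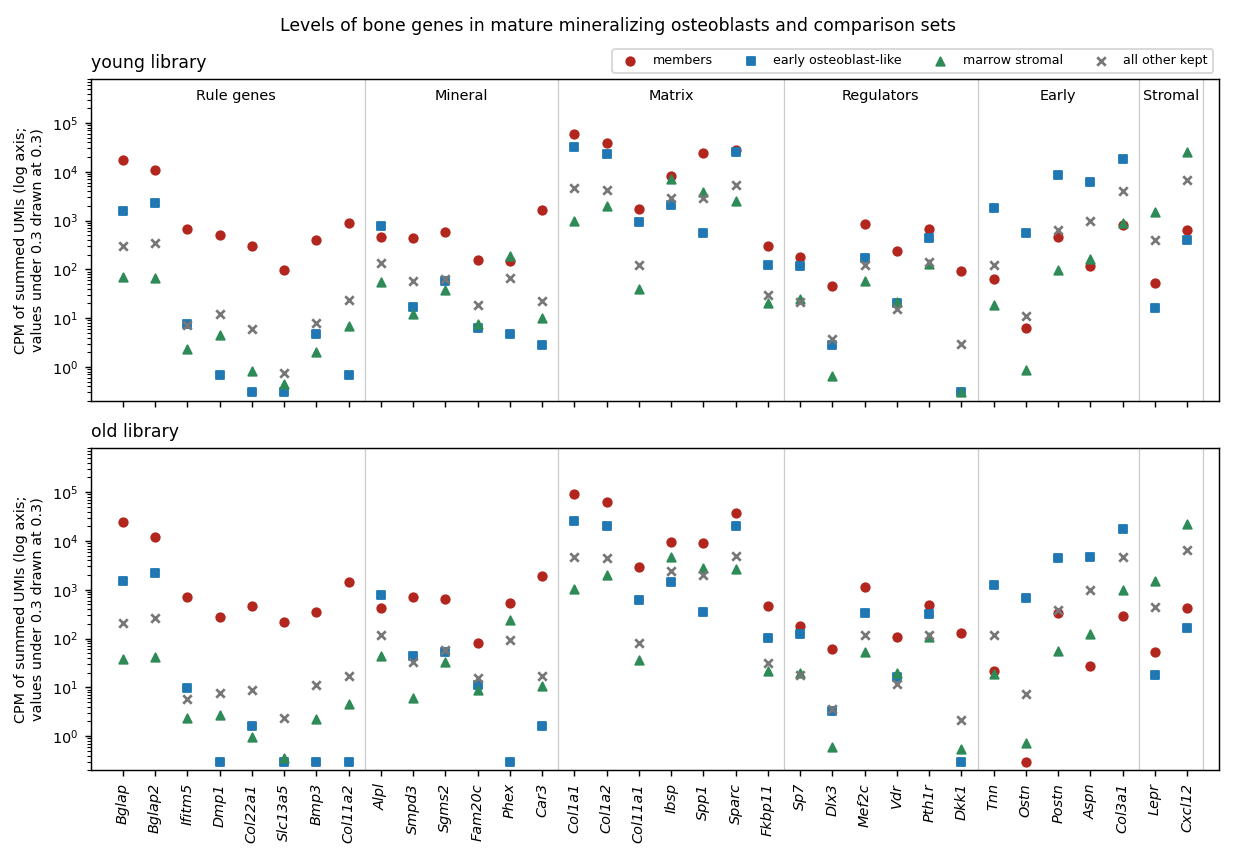
CPM of summed UMIs (log axis) for the rule genes and for genes of mineral handling, matrix, regulation, early osteoblasts and marrow stroma, in the young library (top) and the old library (bottom). Circles are members, squares early osteoblast-like barcodes, triangles marrow stromal barcodes and crosses all other kept barcodes. Members are highest of the 4 sets in both libraries for Car3 (1667 and 1913 CPM) and Col1a1 (59091 and 90300 CPM), and early osteoblast-like barcodes, which were selected on Tnn and Ostn, for Postn, Aspn and Col3a1.

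Across the transcriptome, 8605 genes had a mean of at least 10 CPM over the 4 sums of members and others. Of these, 333 (3.87%) were at least 2-fold higher in members in both libraries and 1278 (14.9%) at least 2-fold lower. The median log2 ratio of members to others over all genes was -0.33 for the young and -0.42 for the old library. Scaling by trimmed means (TMM) instead would add 0.30 and 0.40 to every log2 ratio of members to others, and would give 500 genes higher and 937 lower. With it the counts would be 9 higher and 3 lower for collagens, 7 and 3 for the WNT pathway, 5 and 5 for BMP and TGF-beta signalling and 4 and 2 for receptors. List counts are to be read against these shares. The median log2 ratios of the bone lists were 2.32 and 2.89 for collagens, 1.49 and 1.95 for noncollagenous matrix, 1.65 and 1.37 for transcription factors, 0.92 and 1.19 for osteocyte genes and 0.85 and 0.00 for mineralization. All but the transcription factors hold rule genes, which were high by selection. Without these, a choice made after seeing the data, the medians were 1.17 and 1.34 for collagens, 0.69 and 0.43 for noncollagenous matrix, 0.43 and 1.14 for osteocyte genes and 0.71 and -0.04 for mineralization. Col1a1 and Bglap3, another osteocalcin copy, stayed in the noncollagenous matrix list in both cases. The whole contrast is with cells not selected for these genes, so the counts describe and do not test.

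Genes of mineral handling were examined first. Of 13 genes of mineralization past the filter, 6 were higher and 1 lower in both libraries, Slc13a5 of the rule among the higher. Smpd3, the neutral sphingomyelinase required for bone mineralization, stood at 429 and 694 CPM against 58.1 and 33.2 CPM in others, log2 ratios of 2.89 and 4.39. Sgms2, a sphingomyelin synthase mutated in skeletal dysplasia, had ratios of 3.17 and 3.47, and Fam20c, the kinase of acidic matrix proteins, 3.06 and 2.38. Alpl, the tissue-nonspecific alkaline phosphatase, was at 465 and 428 CPM, log2 1.80 and 1.88 above others, yet early osteoblast-like barcodes had more of it (774 and 798 CPM). Phex, the endopeptidase lost in X-linked hypophosphatemia, was at 150 CPM in young and 547 CPM in old members against 66.6 and 91.3 CPM, but 105 of the 266 young UMIs lay in 1 cell. Without the 2 cells richest in Phex, also a choice made after seeing the data, it was at 87.6 CPM in young members, log2 0.39 above others, so its place among the 6 rests on those cells, and at 442 CPM in old ones (log2 2.28). The phosphate transporter Slc20a1 was the lower gene, at 6.77 and 3.53 CPM against 37.8 and 43.6 CPM. Phospho1, the matrix vesicle phosphatase, was below the filter at 5.08 and 4.95 CPM. Of the ion-handling genes, 4 of 9 were higher and 1 lower. Beside Car3 these were the carbonic anhydrase Car12, the sodium-calcium exchanger Slc8a3 (78.4 and 75.6 CPM against 11.8 and 8.17 CPM) and the proton-coupled amino acid transporter Slc36a2 (240 and 268 CPM against 10.8 and 13.5 CPM). Car2, abundant in red cells and osteoclasts, was the lower gene.

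The matrix genes split by collagen type. Of 14 bone collagens, 8 were higher and 4 lower in members in both libraries, and 6 of 12 were higher without Col22a1 and Col11a2 of the rule. Col1a1 reached 59091 CPM in young members and 90300 CPM in old members against 4580 and 4751 CPM in others, and Col1a2 38147 and 63817 CPM. Col11a1, the partner chain of type XI collagen, had log2 ratios of 3.81 and 5.17, and Col24a1, a fibrillar collagen of developing bone, 3.05 and 3.98. Col13a1, a transmembrane collagen, had 4.62 and 4.96. The fibroblastic Col3a1 was lower, at 795 and 287 CPM against 4057 and 4588 CPM, as were the 3 type VI chains. Relative to early osteoblast-like barcodes the contrast in Col3a1 was wider still, at log2 -4.55 and -5.95.

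Of 15 genes on the noncollagenous matrix list, 8 were higher and 2 lower. Without the rule genes Bglap, Bglap2 and Dmp1, 5 of 12 were higher. The list also held Col1a1, counted among the collagens too, and Bglap3, another osteocalcin copy. Both were among the higher genes in either count. Spp1 (osteopontin) was at 23639 and 9221 CPM, log2 3.02 and 2.20 above others. Ibsp (bone sialoprotein) stood at 7987 and 9432 CPM, log2 1.49 and 1.95, and Sparc (osteonectin) at 27713 and 36844 CPM, log2 2.39 and 2.92. Sparc did not set young members apart from early osteoblast-like barcodes, which had 25527 CPM. Mgp, the inhibitor of calcification, was lower at 248 and 176 CPM against 3772 and 3648 CPM, and so was Fn1 (log2 -2.16 and -2.04). Dcn, a small proteoglycan that binds collagen, was just short of the limit in 1 library at log2 -1.07 and -0.99.

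The machinery that folds and crosslinks collagen was high as well. Of 20 genes, 10 were higher and none lower in both libraries, with a median log2 ratio of 0.91 and 1.14. Creb3l1 (OASIS), the transcription factor that drives type I collagen secretion, was at 259 and 336 CPM against 57.3 and 53.5 CPM. The prolyl and lysyl hydroxylases P3h1 (log2 1.63 and 2.13) and Plod2 (1.99 and 2.09), the chaperones Serpinh1 (1.49 and 1.82) and Fkbp10 (1.51 and 2.03), the procollagen C-proteinase Bmp1 (1.93 and 2.07) and the crosslinking oxidases Lox (1.19 and 1.60) and Loxl4 (2.68 and 3.22) were among the 10. By contrast, only 2 of 15 genes of secretory load and the unfolded protein response were higher, Creb3l1 again and the secretory prolyl isomerase Fkbp11 (298 and 461 CPM against 30.4 and 31.6 CPM). The chaperone Hspa5 (BiP) was at 662 and 555 CPM against 771 and 817 CPM, log2 -0.22 and -0.56, and Xbp1 at log2 0.20 and 0.17. With TMM factors 4 of the 15 were higher.

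Among regulators, 7 of 10 osteoblast transcription factors were higher and none lower. Dlx3, a homeodomain factor of the osteoblast lineage, was at 45.7 and 62.0 CPM in members, 3.80 and 3.59 CPM in others and 2.76 and 3.21 CPM in early osteoblast-like barcodes. Mef2c, which drives Sost in osteocytes, was at 840 and 1113 CPM in members, 124 and 117 CPM in others and 170 and 329 CPM in the early barcodes. Sp7 (osterix), at 179 and 183 CPM, and Runx2, at 354 and 275 CPM, were only slightly above the early barcodes (116 and 124 CPM for Sp7, 306 and 242 CPM for Runx2). Dlx5 and Dlx6 were above all others but below the early barcodes (Dlx5 at 116 and 84.8 CPM against 199 and 204 CPM).

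Of 15 WNT pathway genes, 6 were higher and 4 lower. The higher ones were the coreceptors Lrp4 (log2 3.01 and 2.59) and Lrp5 (2.28 and 1.66), the effectors Tcf7 (3.21 and 3.43) and Ctnnb1 (1.79 and 1.41), and the secreted inhibitors Dkk1 and Notum. Dkk1 was at 92.0 and 130 CPM against 2.99 and 2.13 CPM and was not found in early osteoblast-like barcodes. Other secreted inhibitors went the other way, with Sfrp1 at log2 -2.80 and -3.76 and Sfrp4 at -2.28 and -3.04. Dkk2, found in 3 young members and 1 old member, and the DKK coreceptor Kremen1 were lower too.

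Of 18 genes of BMP and TGF-beta signalling, 4 were higher and 6 lower. Beside Bmp3 of the rule these were Bmp8a (88.6 and 50.2 CPM against 6.81 and 5.17 CPM), the protease Bmp1 and the decoy receptor Bambi (175 and 344 CPM against 39.1 and 28.0 CPM). Bmp5, Bmp6, Tgfb2, Tgfb3, the antagonist Grem1 and the BMP target Id1 were the lower ones. Of 15 receptors, 3 were higher and 5 lower. Pth1r, the parathyroid hormone receptor, was at 674 and 485 CPM against 141 and 117 CPM. Vdr, the vitamin D receptor, was at 234 and 108 CPM against 15.5 and 11.9 CPM, and Lifr, a receptor of the IL-6 family, at 873 and 614 CPM against 167 and 216 CPM. Igf1r, Igf1, Il6st and Pdgfrb were among the lower ones, and with TMM factors 2 were lower. Of 8 genes that couple osteoblasts to osteoclasts, Cthrc1 and Sema4d were higher and Ccl2 and Il34 lower. Tnfsf11 (RANKL) stood at 20.3 and 8.72 CPM, and its decoy receptor Tnfrsf11b (osteoprotegerin) at 76.2 and 36.3 CPM.

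With the rule genes left out, the 25 genes with the highest ratios in both libraries included several without a textbook role in bone. Others, such as Car3, Bglap3, Col13a1 and Col11a1, were on the lists counted above. Lipc, hepatic lipase, led with 117 and 100 CPM against 0.706 and 1.06 CPM, log2 7.37 and 6.57, and Car3 followed. The potassium channel Kcnk1 (log2 6.14 and 6.42), the ectonucleotidase Entpd3 (6.01 and 7.26), carboxypeptidase Z (Cpz, 6.19 and 5.96) and the choline phosphodiesterase Enpp6 (5.85 and 5.53) came next with AU021092 (6.02 and 6.44). Bglap3, another copy of osteocalcin, was at 652 and 883 CPM (5.14 and 5.06). Cdh15, the muscle cadherin, was at 68.3 and 41.7 CPM (4.65 and 4.58), Robo2, a guidance receptor, at 72.2 and 101 CPM (4.20 and 5.19), and Btla, known as an inhibitory receptor of lymphocytes, at 31.6 and 50.2 CPM (4.08 and 4.60). Ccn4 (WISP1), a WNT-induced matricellular protein, stood at log2 4.04 and 4.44. The others were Grrp1, Col13a1, Cgref1, Mlip, Fhod3, Slc36a2, Chn1, Cadm1, Insc, B3galt2, Pla2g5, 9130024F11Rik and Col11a1, with ratios from 3.81 to 5.68. Several of these, Insc and Fhod3 among them, were shared with the early osteoblast-like barcodes, to which the log2 ratios were 0.64 and 0.96 for Insc and 0.80 and 1.65 for Fhod3.

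The lowest ratios belonged to genes of blood and fibroblasts, namely Hbb-bs, Hbb-bt, Hba-a1, Hba-a2, Ppbp, Pf4, Camp, Ngp, Pi16 and Ccl2. None of these 10 was above 29.0 CPM in members, and Hbb-bs stood at 11.3 and 29.0 CPM in members against 1644 and 4194 CPM in others. All 10 marrow stromal markers and all 10 fibroblast markers were lower in both libraries. Lepr was at 52.5 CPM in members of both mice against 405 and 447 CPM, and Cxcl12 at 648 and 429 CPM against 6673 and 6620 CPM. All 9 erythroid, 7 neutrophil, 4 B-lineage and 4 megakaryocyte markers past the filter were lower. A gene near 0 in members can pass the filter only through the other barcodes, so its direction was fixed by the filter. Cd79a, for example, was at 0 CPM in members of both mice against 41.3 and 12.2 CPM in others. Members summed to 74.2 to 88.0 CPM over the erythroid list and 9.89 to 13.0 CPM over the megakaryocyte list. Of 4 osteoclast markers 2 were lower, and Acp5 was at 4.51 and 3.30 CPM. Ctsk, which osteoblasts also transcribe, was at 261 and 310 CPM, near its level in others. Of 12 stress and immediate-early genes 2 were lower (16.7%) and of 14 glycolytic genes 2 (14.3%), near the 14.9% of all genes past the filter. With TMM factors 1 was lower in each of these lists. Of 17 genes of the citrate cycle and citrate transport only Slc13a5 of the rule was higher.

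The type II collagen gene Col2a1, the main collagen of cartilage, broke this pattern. It was the only 1 of 6 chondrocyte markers higher in members, at 539 and 867 CPM against 122 and 104 CPM, and was found in 67 of 146 young members (45.9%, 37.6 to 54.3%) and 118 of 178 old members (66.3%, 58.8 to 73.2%). At 2000 UMIs it was found in 23.4% and 42.7% of members against 2.89% and 1.95% of other barcodes and none of the early osteoblast-like ones. The cell richest in Col2a1 held 385 of 955 young UMIs and 400 of 3682 old UMIs. The chondrocyte regulator Sox9 (51.3 and 20.5 CPM against 81.2 and 62.7 CPM) and aggrecan (Acan, 39.5 and 12.7 CPM against 67.2 and 65.5 CPM) were not higher, Cytl1 was at 1.69 and 0.236 CPM, and Snorc had no UMI in any member, which allows up to 3 counts in each library. Col10a1, of hypertrophic cartilage, was found in no young and 3 old members.

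The step into the selection could be followed among all barcodes with 10 or more osteocalcin UMIs, ordered by how many of the 6 genes they held. Car3 stood at 5.43 CPM in the 576 young barcodes with none of the 6 genes, at 124 CPM with 1 or 2, at 924 CPM with 3 or 4 and at 2442 CPM with 5 or 6. In the old mouse the values were 14.0, 161, 1168 and 2157 CPM. Mef2c ran the same way in the old, from 324 to 1141 CPM, and in the young was at 325 CPM with none, 885 CPM with 3 or 4 and 793 CPM with 5 or 6. Fkbp11 was about level up to 1 or 2 genes (87.1 and 81.5 CPM in the young) and reached 448 and 543 CPM with 5 or 6. Col1a1 was highest with 5 or 6 genes, at 89745 and 107517 CPM, about level between none and 1 or 2 in the old mouse (20579 and 20255 CPM) and lower with 1 or 2 in the young (22314 and 12995 CPM). The opposite order was seen in genes of early osteoblasts and their precursors. Tnn, a tenascin of the periosteum and young osteoblasts, went from 1133 CPM to 36.9 CPM in the young and from 1043 to 3.44 CPM in the old, Postn (periostin) from 5235 to 206 CPM and from 3225 to 198 CPM, and Col3a1 from 13114 to 311 CPM and from 15466 to 190 CPM. Spp1 followed neither order. It was highest with 3 or 4 genes (33324 and 24384 CPM) and lower with 5 or 6 (13538 and 4244 CPM). Alpl was highest with 1 or 2 genes (1061 and 1311 CPM) and lowest with 5 or 6 (325 and 293 CPM). Median depth differed along this order, at 7112.5 UMIs with none and 13024 with 5 or 6 genes in the young library and 12490 and 30604 in the old one, and its part in these values was not tested.

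**Figure D2:**
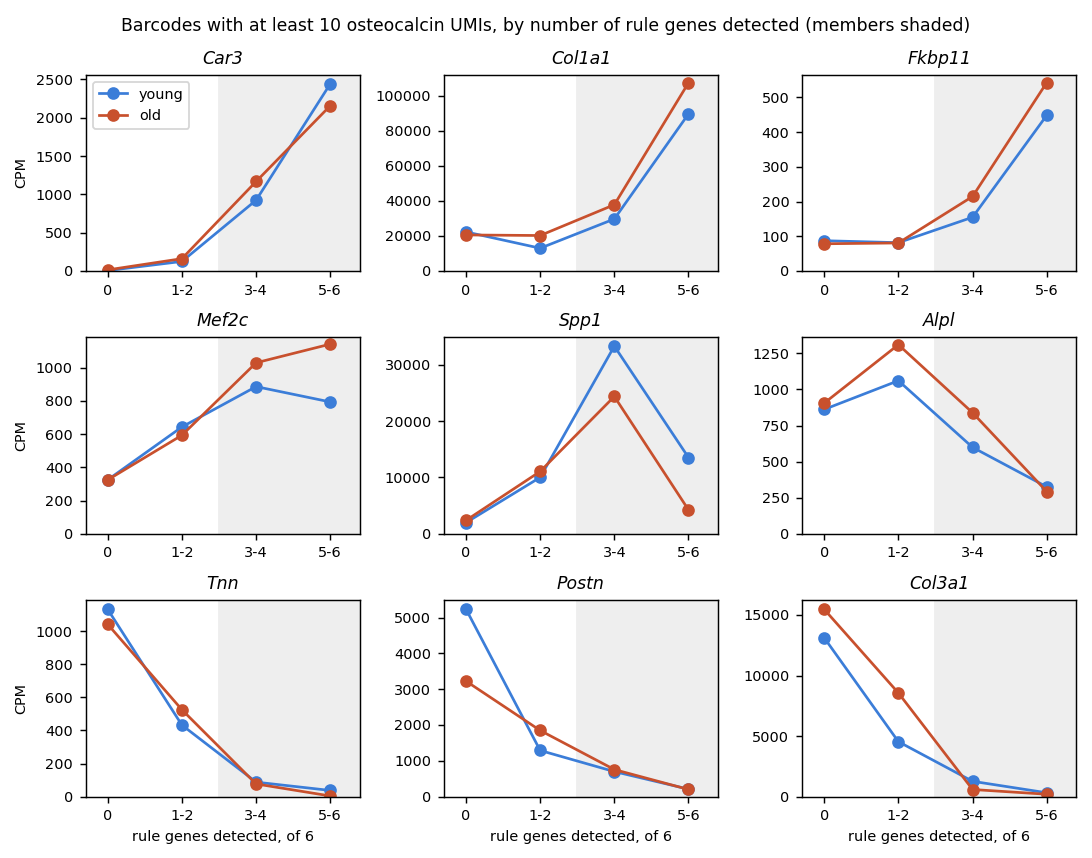
CPM (linear axes from 0) of 9 genes in barcodes with at least 10 osteocalcin UMIs, grouped by the number of the 6 rule genes detected, in the young (blue) and the old library (orange). The shaded groups are the members. Car3, Col1a1 and Fkbp11 are highest on the right, Tnn, Postn and Col3a1 on the left, and Spp1 peaks at 3 or 4 genes (33324 and 24384 CPM).

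Members also differed among themselves, most visibly in Spp1. In cells thinned to 2000 UMIs, Spp1 and Col1a1 UMIs ran opposite to each other, with a Spearman rho of -0.63 over 145 young and -0.59 over 178 old members, whereas Spp1 and Mmp13, the collagenase of bone, ran together (0.59 and 0.55). Shares of 1 total are tied to each other, and these correlations are given as a description. Members were therefore also set out in tertiles by the share of Spp1 in their RNA, which reached 0.235% in the lowest tertile of the young mouse and ran from 1.66% to 24.9% in the highest. Mmp13 stood at 4357 CPM in the highest and 434 CPM in the middle tertile of young members and at 2147 and 289 CPM in those of old members, and was lower still in the lowest tertile of both. In the highest tertile against the lowest, Tnc (tenascin C) was at 2925 against 269 CPM and 2447 against 142 CPM, Vdr at 508 against 110 CPM and 273 against 58.4 CPM, Lifr at 1671 against 447 CPM and 1377 against 313 CPM, and Runx2 at 549 against 248 CPM and 502 against 167 CPM.

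Several matrix genes ran the other way over the same tertiles. Tnc, given above, did not, and Ibsp was lowest in the middle tertile of both mice. From lowest to highest Ibsp was at 7312, 6820 and 10372 CPM in young and 12131, 6347 and 10023 CPM in old members. Col1a1 was at 11642 CPM in the highest against 93370 CPM in the lowest tertile of the young mouse and at 35462 against 114327 CPM in the old. Bglap was at 4438 against 24794 CPM and 10464 against 29784 CPM, Car3 at 729 against 2386 CPM and 1123 against 2111 CPM, and Col11a1 at 174 against 3166 CPM and 593 against 4384 CPM. Slc13a5 had no UMI in the 48 young members of the highest tertile and stood at 7.16 CPM in the 59 old ones, against 193 and 435 CPM in the lowest. Dmp1 of the rule was highest in the highest Spp1 tertile of both mice, at 187, 354 and 1096 CPM from the lowest to the highest in the young and at 367, 109 and 401 CPM in the old. Sp7 was at 157, 220 and 158 CPM in the young and at 199, 182 and 158 CPM in the old. Median depth was 9239.5 against 10827 UMIs in young members, and 14049 against 27377 UMIs in old ones. Its part in the pattern was not tested.

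**Figure D3:**
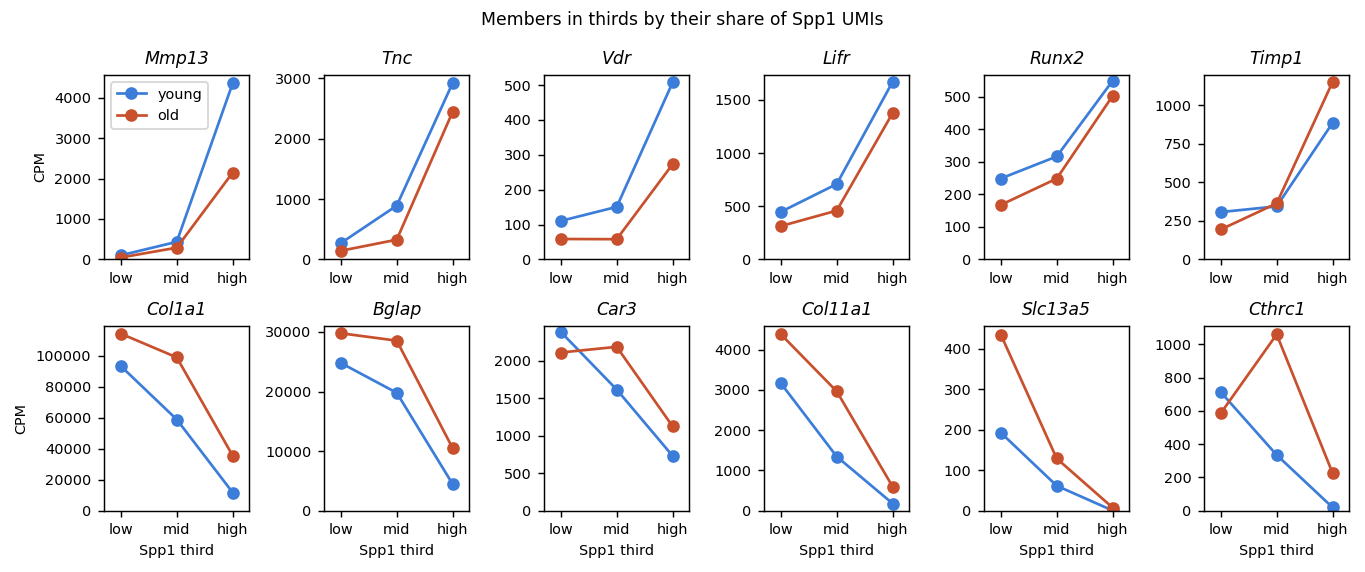
CPM (linear axes from 0) of 12 genes in members set out in tertiles (low, mid, high) by their share of Spp1 UMIs, in the young (blue) and the old library (orange). The upper row holds genes that are highest in the high tertile of both libraries, such as Mmp13 (4357 and 2147 CPM), and the lower row genes that are lowest there, such as Col1a1 (11642 and 35462 CPM).

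The osteocyte genes were mixed. Of 15 past the filter, 7 were higher in members in both libraries, Dmp1, Phex, Dkk1, Irx5, Ptprz1, Hpgd and Tmem119, and 3 were lower, Fbln7, Cdkn1c and Capg. Dmp1 was high by selection, and Phex was not past 2-fold in the young mouse without its 2 richest cells. Sost, which encodes sclerostin and marks mature osteocytes, was not found in the young members, which allows up to 3 counts, and had 100 UMIs in 8 old members (4.49%, 1.96 to 8.66%), 74 of them in 2 cells. Mepe was found in 11 young and 17 old members at 9.59 and 10.6 CPM, and Fgf23 in 5 and 1. The defining markers of mature osteocytes were thus near 0 in most members of both mice.

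Old and young members were then compared, without a test since there was 1 mouse of each age. Of 7632 genes with a mean of at least 10 CPM over both sums, 90 (1.18%) were at least 2-fold higher in old members and 199 (2.61%) at least 2-fold lower. The median log2 ratio of old to young was -0.09. TMM factors would add 0.13 to each ratio and give 118 genes higher and 131 lower. As members of the old mouse held more of the 6 genes per cell and were deeper, a difference in mean can be a difference in the mix of members.

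Of 17 osteocyte genes, 5 were higher in old members and 1 was lower, with a median log2 ratio of 0.50 over the list. With TMM factors these counts were 6 and 0. Phex was at 150 CPM in young and 547 CPM in old members, log2 1.87 (1.68 to 2.06), and 87.6 and 442 CPM without the 2 richest cells of each mouse. Irx5, a homeobox gene, was at 77.3 and 216 CPM (1.48, 1.22 to 1.75), the chemokine scavenger Ackr3 at 27.1 and 94.9 CPM (1.81, 1.38 to 2.27) and Pdpn (podoplanin), an early osteocyte protein, at 33.8 and 83.9 CPM (1.31, 0.91 to 1.73). Sost was at least 3.80 on the log2 scale higher, computed against 3 counts in the young sum, but without its 2 richest cells 26 UMIs remained in old members (6.16 CPM). Capg was the lower one (log2 -1.06). In all other barcodes Ackr3 and Pdpn were not higher in the old mouse (log2 -0.28 and -0.68). In members with 5 or 6 of the rule genes the log2 ratios were 1.69 for Phex, 1.14 for Irx5, 1.75 for Ackr3 and 1.24 for Pdpn. In members with 3 or 4 of the genes they were -0.63, 0.53, -0.13 and -0.03. Outside the osteocyte list, Car12, the membrane carbonic anhydrase, was at 19.2 CPM in young members and 109 CPM in old ones (2.51, 2.01 to 3.06) and was found in 5 and 31 of them. Car12 was also higher in members with 5 or 6 of the rule genes (1.81). With 3 or 4 genes its ratio of 2.90 was computed against the floor of 3 counts in the young sum. In young members 22 of its 34 UMIs lay in 1 cell, and in all other barcodes the log2 ratio was 1.06. Slc13a5 (1.21), Col24a1 (1.34) and Bmp4 (1.21) were higher too, the last 2 only with 5 or 6 genes (1.17 and 1.37, against -0.61 and -0.92 with 3 or 4). In the old mouse Phex and Car12 were concentrated in the lowest Spp1 tertile, at 1292 and 253 CPM against 67.5 and 2.05 CPM in the highest.

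Type I collagen was higher and Spp1 lower in the old members. Col1a1 had a log2 ratio of 0.61 (0.60 to 0.62) and Col1a2 of 0.74 (0.73 to 0.75), which are under 2-fold, and in other barcodes the ratios were 0.05 and 0.09. Within levels of the rule they were smaller, at 0.35 for Col1a1 and 0.26 for Col1a2 with 3 or 4 genes and at 0.26 and 0.44 with 5 or 6. Median depth still differed within a level, at 8611 and 12711 UMIs with 3 or 4 genes and 13024 and 30604 with 5 or 6. Its part in ratios within levels was not tested. Spp1 was at 23639 CPM in young and 9221 CPM in old members, log2 -1.36 (-1.38 to -1.34), and also -0.53 in other barcodes. Within members with 5 or 6 of the genes Spp1 was at 13538 and 4244 CPM and within those with 3 or 4 at 33324 and 24384 CPM, lower in the old mouse in both. Vdr was at 234 and 108 CPM (-1.12, -1.31 to -0.92), Mmp13 at 1386 and 622 CPM (-1.16), and both were lower in the old mouse in each Spp1 tertile. In members with 3 or 4 genes Mmp13 was not lower, at log2 0.20 against -2.44 with 5 or 6. Of the 20 collagen-processing genes none was past 2-fold in either direction, and with TMM factors 2 were higher in old members.

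Genes of early osteoblasts and fibroblasts were also compared. Of 9 early osteoblast genes 2, Tnn and Aspn, were lower in old members and none was higher, and of 7 fibroblast markers 4 were lower. Tnn was at 62.6 and 21.4 CPM (-1.55), Aspn (asporin) at 120 and 27.3 CPM (-2.13), Col3a1 at 795 and 287 CPM (-1.47) and Igf1 at 45.1 and 8.95 CPM (-2.33). Aspn and Col3a1 were lower at both levels of the rule, whereas Tnn differed little with 3 or 4 genes (-0.19). The ratio of Igf1 with 5 or 6 genes was 1.12, but few UMIs of young members were behind it, so its sign is uncertain. Wnt16, a WNT ligand made by osteoblasts that limits bone resorption, was at 50.8 CPM in young and 4.71 CPM in old members (-3.43, -4.21 to -2.72), found in 24 and 9 of them, against -0.50 in other barcodes. In early osteoblast-like barcodes it was at 338 and 99.5 CPM. The 10 genes lowest in old members by rule were AA465934, Gm8797, Wnt16, Chad, Gm47283, Ankmy1, Ulk4, Sned1, Gem and Glul. Of these AA465934, Gm8797, Gm47283, Ankmy1, Ulk4 and Chad were at least 2-fold lower in the other barcodes of the old mouse too (log2 from -4.69 to -1.30).

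The 10 genes highest in old members by rule were Igkc, Ighm, Slpi, Gsg1, Afap1l2, Creb3l3, Gchfr, Car12, Dock9 and Enho. The immunoglobulin chains Igkc (1.69 and 30.6 CPM) and Ighm (2.82 and 32.0 CPM) and the protease inhibitor Slpi (1.69 and 18.8 CPM) differed more or about as much between the other barcodes of the mice (log2 7.19, 5.00 and 2.92). Igkc was found in 91 old members (51.1%) and in 43.9% of the other old barcodes. The neutrophil messages S100a8 and S100a9 were likewise higher in old members, at 220 and 314 CPM against 6.21 and 10.2 CPM, but 1249 of the 1334 S100a9 UMIs lay in 2 cells, and 38.2% of old members and 33.1% of other old barcodes held a UMI of it. The part of free RNA in these values was not tested. Creb3l3, a membrane-bound transcription factor of the CREB3 family, was at 5.08 and 35.3 CPM (2.80, 1.84 to 3.96) and was found in 5 young and 51 old members. It was at 0.126 and 0.224 CPM in other barcodes. Gsg1 was at 2.82 and 25.7 CPM and Dock9, a guanine nucleotide exchange factor, at 9.59 and 54.2 CPM, higher with 5 or 6 genes (log2 2.91) and not with 3 or 4 (-0.21).

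**Figure D4:**
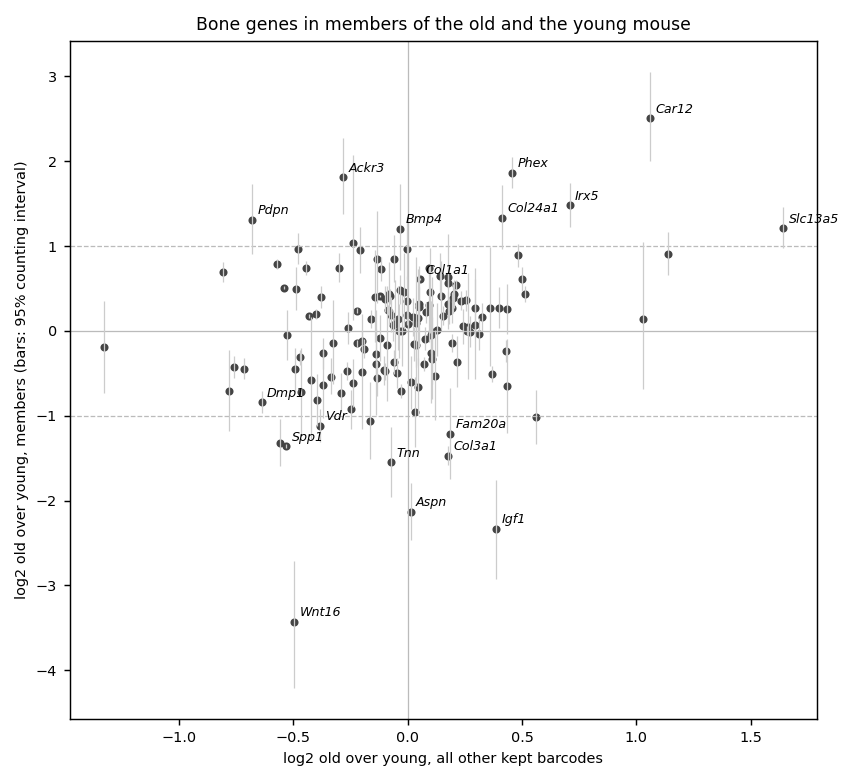
Log2 ratio of old to young CPM in members (vertical, bars are 95% counting intervals) against the same ratio in all other kept barcodes (horizontal), 1 point for each gene of the bone lists with a UMI in members of both mice and a mean of at least 10 CPM. Dashed lines mark 2-fold. Car12 (2.51) and Phex (1.87) are highest and Wnt16 (-3.43) and Igf1 (-2.33) lowest in old members, away from the value in other barcodes.

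Senescence was the subject of the study, and its genes were read in members as a list. None of 15 genes was higher in both libraries and 4 were lower (2 with TMM factors). Between the ages, 2 of 15, Cdkn2a and Plaur, were higher in old members and 1, Gadd45a, was lower. Cdkn2a encodes p16Ink4a and also p19Arf, and the paper describes its transcript variants as hard to separate in standard single-cell libraries. The gene was below the filter in the contrast with other barcodes. It had 8 UMIs in 4 of 146 young members (2.74%, 0.751 to 6.87%) and 72 UMIs in 23 of 178 old members (12.9%, 8.37 to 18.8%). At 2000 UMIs the shares were 0.690% and 2.81%, near the level of single molecules. In other barcodes it was at 1.90 and 8.12 CPM against 4.51 and 17.0 CPM in members, in megakaryocyte barcodes at 4.45 and 3.08 CPM, in B-lineage barcodes at 2.08 and 2.81 CPM and in erythroid barcodes at 0 CPM. The young members were thus at the level of the young megakaryocyte barcodes. Cdkn1a (p21) was at 334 and 332 CPM against 226 and 155 CPM in others, log2 0.56 and 1.10, and the log2 ratio of old to young members was -0.01 (-0.15 to 0.13). Of 16 secreted inflammatory genes 12 were lower and 1, Timp1, was higher (480 CPM in members of each mouse against 194 and 231 CPM). Cxcl1 (55.3 and 11.3 CPM), Il6 (18.6 and 0.707 CPM) and Igfbp5 (407 and 314 CPM) were among the lower. Between the ages, 5 of 11 were lower in old members and 1 higher. Of 12 cell cycle genes 8 were lower (5 with TMM factors) and none higher, with Mki67 in 10 young and 20 old members.

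CD24 antibody was the measurement that did not enter the selection. Young members carried a median of 125.5 antibody UMIs (112 to 149) and old members 136 (121 to 152). The values ran from 26 to 1898 and from 0 to 2400, with quartiles of 79.25 to 270 and 90 to 224.75. All other kept barcodes had medians of 92 (90 to 94) and 94 (91 to 96), marrow stromal barcodes 88 and 87, and megakaryocyte barcodes, the lowest class, 62 and 50.5. Early osteoblast-like barcodes were above members in the young mouse, at 208 (184 to 263), while in the old mouse the intervals overlapped at 178.5 (133 to 349). B-lineage barcodes, which carry CD24, had 2396 and 2098. The median of members was thus above that of all other barcodes and far below that of B cells in both mice, and it was below that of the early osteoblast-like barcodes beyond the intervals in the young mouse alone. It lay inside the quartiles of the other barcodes (56 to 178 and 60 to 175). The quartiles of members overlapped those of stromal and early osteoblast-like barcodes in both mice and lay apart from those of B-lineage barcodes.

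A barcode was called CD24+ above the Otsu threshold of its library, which was 312 antibody UMIs for the young library and 396 for the old. By this call 28 of 146 young members (19.2%, 13.1 to 26.5%) and 25 of 178 old members (14.0%, 9.30 to 20.0%) were CD24+, against 15.6% and 13.5% of other barcodes and 32.2% and 26.3% of early osteoblast-like barcodes. Antibody counts of members ran weakly with RNA UMIs (Spearman rho 0.29 and 0.19) and hardly with the number of the 6 genes (-0.05 and 0.03). Per 1000 RNA UMIs the median was 16.4 for young and 6.93 for old members, against 15.5 and 11.5 for others, so that on this scale the old members were below the rest of their library. The Cd24a message was found in 11 young (7.53%) and 19 old members (10.7%), against 5.95% and 7.81% of megakaryocyte barcodes, whose antibody was lowest and whose median depth was 10989.5 and 11433 RNA UMIs, and 95.4% and 86.0% of B-lineage barcodes. At 8.46 and 7.30 CPM it was not detectable in members above that background.

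**Figure D5:**
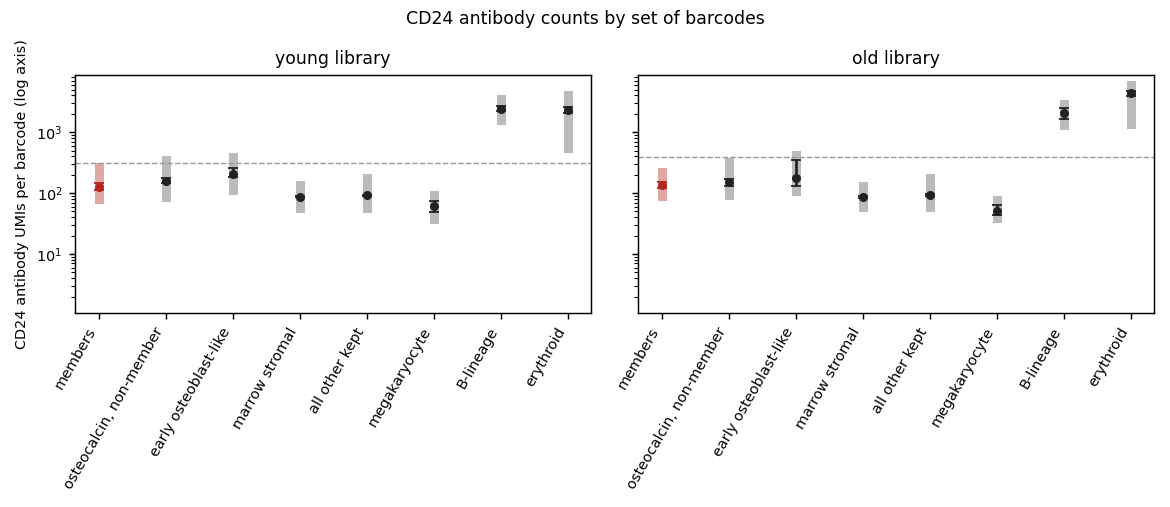
CD24 antibody UMIs per barcode (log axis) in 8 sets of barcodes of the young (left) and the old library (right). Points are medians with exact 95% intervals, thick bars span the quartiles, and the dashed line is the Otsu threshold (312 and 396). Members (125.5 and 136) lie between marrow stromal (88 and 87) and early osteoblast-like barcodes (208 and 178.5).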

How the data were processed

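Cells of bone and marrow of 1 young and 1 old mouse were sequenced on the 10x 3′ platform with a CD24 antibody. The authors deposited raw UMI counts per barcode for 32285 genes and 1 antibody, made with Cell Ranger 6.1.1 per the file headers; the submitters' processing notes also name build mm10, Seurat 4.0 and R 4.0.3. The libraries held 11371 and 6729 barcodes and 82675434 and 68580402 RNA UMIs. Barcodes with at least 200 genes and at most 20% mitochondrial UMIs were kept. Scrublet doublets (269 and 57) were kept in the main values and removed as an alternative. UMIs were summed per library and set and divided by the total (CPM). Genes with a mean of at least 10 CPM were compared, and 2-fold in both libraries was the limit. Intervals of ratios are exact conditional binomial, of shares Clopper-Pearson. Genes named were the 8 rule genes, the fixed lists, and by ratio the 25 highest, 10 lowest, and 10 highest and 10 lowest with age, among genes with at least 50 UMIs in members (for the lowest, 100 CPM in others) and, except for the lowest, no cell with over 20% of them. The members and lists were chosen with earlier results of these data known. Python 3.11.15, scanpy 1.11.5, SciPy 1.17.1 and edgeR 4.0.16 (TMM factors only) were used, and the ratio code was tested on simulated data.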

Additional observations from a re-analysis of the deposited data

Results flagged for a closer look

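Afap1l2 and Wnt16 were on opposite sides of the other barcodes in the young and the old mouse. Afap1l2, which encodes an actin filament-associated adaptor, had a log2 ratio of members to others of -1.73 (young) and 1.22 (old), a difference of 2.95, on 5 and 90 UMIs in members. Wnt16 had ratios of 1.28 and -1.65, a difference of -2.93, on 90 and 20 UMIs. With 1 mouse of each age the difference was not tested.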

How the results depend on the processing

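Genes higher in members in both libraries numbered 333 and were 500 with TMM factors, 515 with median-of-ratios factors, 546 at 1.5-fold, 145 at 4-fold and 2891 with no filter. Genes lower numbered 1278 and were 705 against early osteoblast-like barcodes, 2303 at 1.5-fold, 555 at 4-fold and 2616 with no filter. Genes higher in old members numbered 90 and were 163 with every cell weighted equally, 320 at 1.5-fold, 20 at 4-fold, 643 with no filter, 714 after thinning and 160 in members with 5 or 6 of the 6 genes, an alternative chosen after seeing the data. Genes lower in old members numbered 199 and were 131 with TMM factors, 124 with median-of-ratios factors, 411 with at least 50 osteocalcin UMIs, 810 at 1.5-fold, 23 at 4-fold, 1008 with no filter and 831 after thinning. Of the genes past the limit, 20.7% were higher in members (34.8% with TMM factors) and 31.1% higher in old members (47.4%). The share of members was 1.45% and 3.17%, and was 2.01% and 3.78% with at least 2 of the 6 genes, 1.00% and 2.60% with at least 4, 0.964% and 2.35% with at least 50 osteocalcin UMIs and 0.592% and 1.60% at 2000 UMIs. It was larger in the old mouse under each of these. The median CD24 count stayed within its interval under the 6 alternatives run in each mouse. The thinned alternative kept the main members (145 young and 178 old) and their full antibody counts, so it could not show an effect of depth. Depth limits genes of a few UMIs and shares of cells with a UMI. No paired analysis was possible because each age had 1 sample and no result came from a test.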
